A study of Ascaridia galli and Trichostrongylus colubriformis with 4 samples.

Results

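Chitin and the proteoglycans that lie beside it were followed in 2 parasitic nematodes by taking every assembled transcript (unigene) whose protein name contains chitin, chondroitin proteoglycan, eggshell or vitelline. The rule found 65 of 194608 unigenes, 59 of 150798 in *Ascaridia galli*, the chicken roundworm, and 6 of 43810 in *Trichostrongylus colubriformis*, a strongylid worm of sheep. In *A. galli* 22 names contain chitin and 37 contain chondroitin proteoglycan. In *T. colubriformis* 6 names contain chitin and 0 contain chondroitin proteoglycan. The words eggshell and vitelline matched 0 names in either worm. By role the *A. galli* members comprise 5 unigenes of chitin synthesis, 4 of chitin binding, 13 of chitin breakdown and 37 chondroitin proteoglycans. Those of *T. colubriformis* comprise 1 of synthesis, 4 of binding and 1 of breakdown.

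The worms were taken from intestines of slaughtered hosts and kept in vitro in a water extract of the moss *Pottia lanceolata* or in distilled water, and RNA of whole worms was sequenced, with 1 library per worm and condition. The extract was assayed at 10, 20 and 50 mg/ml, and the sources used here do not give the concentration, the exposure time, the sex or the number of worms behind a library. The deposited tables call the conditions A and B and do not say which is extract. Every ratio below is therefore condition B over condition A within 1 worm, the letters may stand for different treatments in the 2 worms, and no direction can be read as an effect of the extract.

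Chitin is a polymer of N-acetylglucosamine that chitin synthase builds at the cell membrane and that chitinases cut. In nematodes it is known from the eggshell and from the lining of the pharynx. In *Caenorhabditis elegans* the eggshell has an outer vitelline layer, a chitin layer beneath it and an inner layer of chondroitin proteoglycans, which are proteins carrying chains of the sugar polymer chondroitin, and loss of the eggshell chitin synthase or of the proteoglycans CPG-1 and CPG-2 leaves embryos that do not develop.

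Reads recovered from the deposited values, summed over the listed unigenes of *A. galli*, were 69118994 in condition B and 87659967 in condition A. For *T. colubriformis* they were 91812201 in condition B and 91182265 in condition A. Values are the authors' normalized counts. In *A. galli* 1 read was worth 0.986 normalized counts in condition B and 1.01 in condition A. In *T. colubriformis* it was worth 0.5 in condition B and 2 in condition A, a factor of 4 between conditions with nearly equal recovered reads. Scaling to these recovered totals instead (total scaling) adds 0.38 to a log2 ratio of summed counts in *A. galli* and 1.99 in *T. colubriformis*. It adds somewhat less to the ratio of a single unigene with few counts, because of the pseudocount of 1, and it is given where it changes a statement. With 1 library per condition there is no replicate and no test. The intervals given are 95% exact binomial (Clopper-Pearson) intervals of a ratio, which cover counting error only and not variation between worms. Unigene lengths are not given, so values are compared between conditions and not between unigenes. A unigene is listed only if both conditions had reads of it. In RNA of whole worms, fewer cells of a type and less RNA per cell cannot be told apart.

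In *A. galli* the unigenes of chitin breakdown, chitin binding and the chondroitin proteoglycans each had fewer normalized counts in condition B than in condition A, and those of chitin synthase had slightly more. The 59 members summed to 8025 normalized counts in condition B and 15626 in condition A, a log2 ratio of −0.96 (−1.02 to −0.91), or −0.58 under total scaling. Of the 59, 38 were lower and 21 higher in condition B. The 4-fold rule was applied to unigenes whose larger value reached 20 normalized counts. Of the 50 members that did, 4 exceeded condition A by 4-fold or more in condition B, and 8 lay that far below it. Across all *A. galli* unigenes that pass the same minimum, 22.7% were at least 4-fold higher and 9.76% at least 4-fold lower. Among unigenes whose best hit is in a related ascaridoid (*Ascaris*, *Toxocara* or *Anisakis*), as it is for 55 of the 59 members, these shares were 2.95% and 7.71%. Under total scaling 54 members passed the minimum, with 6 higher and 8 lower by the rule, and the shares over all unigenes were 29% and 5.74%. The members' median log2 ratio was −0.57, with an interquartile range of −1.39 to 0.70 over the 58 members whose 2 values averaged 10 normalized counts or more. The same median was −0.25 over all annotated unigenes and −0.58 over those with a hit in a related ascaridoid. By the median, then, the members lie as low as the other transcripts of that kind. They were more spread out, with 8% at least 4-fold higher and 16% at least 4-fold lower, against the 2.95% and 7.71% of that kind. Levels are not matched there, since 37 of 58 members had a mean of 10 to 100, against 9444 of 27376 of that kind. In that band 4 of 34 members with such a hit were 4-fold higher and 5 lower, against 713 and 963 of the 9444. At a mean of at least 100, 0 of 20 were higher and 3 lower, against 114 and 1094 of 17932.

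**Figure D1:**
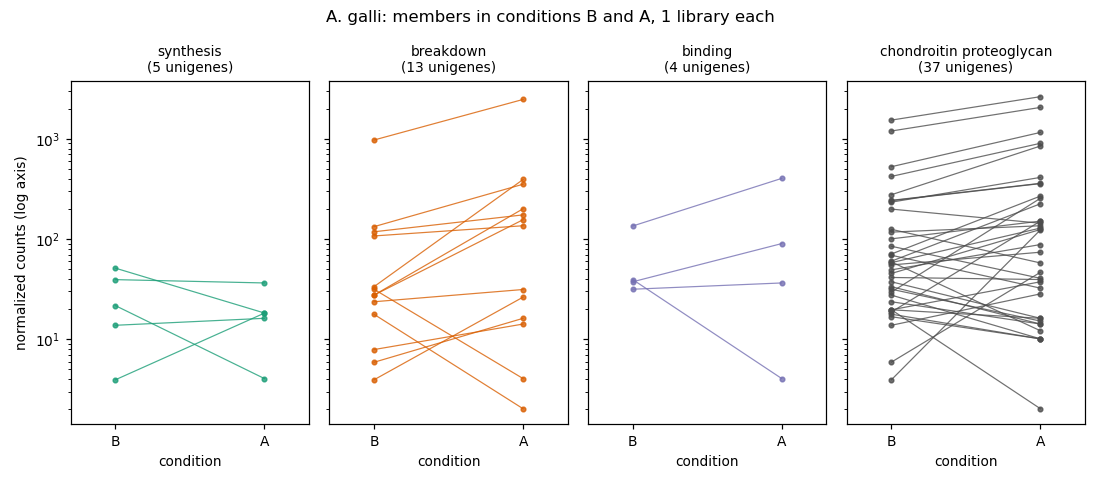
Normalized counts (log axis) of the 59 *A. galli* members in conditions B (left) and A (right), 1 library each; each line joins the 2 values of 1 unigene, in a panel per role. Lines of breakdown and of the proteoglycans mostly run upward to condition A where counts are high, and cross in both directions where counts are low.

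Chitin synthase, the membrane enzyme that links N-acetylglucosamine into chitin, was thinly covered in *A. galli*. The 5 unigenes summed to 130.1 normalized counts in condition B and 93.3 in condition A, a log2 ratio of 0.48 (−0.08 to 1.06). Whether 0 lies in the interval depends on the scaling, since with total scaling the ratio was 0.86 (0.30 to 1.44). Chitin synthase 8 unigene 46484 had 39.4 normalized counts in condition B and 36.5 in condition A, which are nearly level. Chitin synthase 8 unigene 143461 had 51.3 in condition B and 18.3 in condition A, a log2 ratio of 1.44 (0.35 to 2.77). Unigene 46037, of the same name, had 13.8 in condition B and 16.2 in condition A. The 2 synthase unigenes with the widest ratios both had 4 reads in one condition. Chitin synthase 8 unigene 171096 had 22 reads in condition B and 4 in condition A, a log2 ratio of 2.17 (0.22 to 5.63), and was the 1 synthesis member past the 4-fold rule. Chitin synthase 2 had 4 reads in condition B and 18 in condition A, with an interval of −5.46 to 0.06. All 5 carry the annotation term for transfer of hexosyl groups. Each aligned to at most 25.8% of its hit protein, with identities of 46.2% to 91.2%, so they are pieces of synthase transcripts.

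Chitin binding was represented in *A. galli* by 4 unigenes named for the Peritrophin-A domain, a chitin-binding domain first known from the insect gut lining. The member with the most reads was lower in condition B and the one with the fewest was higher. Unigene 185673 had 135.1 normalized counts in condition B and 403.6 in condition A, a log2 ratio of −1.57 (−1.99 to −1.17). Unigene 108211 had 37.5 in condition B and 90.2 in condition A, a log2 ratio of −1.24 (−2.14 to −0.48). Both intervals lie below 0. Unigene 92299 was nearly level at 31.6 in condition B and 36.5 in condition A. Unigene 100878 stood apart with 40 reads in condition B and 4 in condition A, a log2 ratio whose interval is 1.24 to 6.42, and was the 1 binding member at least 4-fold higher. Together they summed to 243.6 normalized counts in condition B and 534.4 in condition A, a log2 ratio of −1.13 (−1.45 to −0.82). Unigene 185673 supplied 69.2% of that sum. None of the 4 aligned to more than 49.4% of its hit, and 0 of the 4 hits were in a related ascaridoid.

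Chitin breakdown was lower in condition B of *A. galli*. Its 13 unigenes summed to 1513 normalized counts in condition B and 3983 in condition A, a log2 ratio of −1.40 (−1.52 to −1.28), or −1.01 under total scaling. By unigene, 11 were lower and 2 higher in condition B. Of the 10 that passed the minimum, 4 were at least 4-fold lower and 1 was 4-fold higher or more, beside 9.76% and 22.7% of all *A. galli* unigenes. All 13 have a hit in a related ascaridoid, and among such unigenes the shares were 7.71% and 2.95%.

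The chitinase with the most reads, named acidic mammalian chitinase after the chitin-cutting enzyme of the mammalian stomach and lung, had 974.3 normalized counts in condition B and 2475 in condition A. Its log2 ratio was −1.34 (−1.50 to −1.19), and it supplied 62.8% of the group's sum. Endochitinase, a name for enzymes that cut inside the chitin chain, had 33.5 normalized counts in condition B and 393.4 in condition A. At −3.51 (−4.36 to −2.84) this was the lowest log2 ratio among the breakdown members. A second unigene, putative endochitinase, had 4 reads in condition B and 26 in condition A, a log2 ratio of −2.47 (−5.93 to −0.60). Chitinase domain-containing protein 1, known in humans as a secreted carbohydrate-binding protein, came as 3 unigenes that summed to 358.9 normalized counts in condition B and 663.2 in condition A. Unigene 94063 was the lowest of them, with 133.1 in condition B and 352.9 in condition A, a log2 ratio of −1.40 (−1.82 to −0.98). For unigenes 206524 and 100958 the log2 ratios were −0.56 and −0.34, and the interval of 100958 (−0.87 to 0.21) includes 0.

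Chitinase-like protein C25A8.4, named after a *C. elegans* gene, was split over 7 unigenes that differed in direction. All 7 have the same *Toxocara canis* protein as best hit. The long pieces were low in condition B. Unigene 17241 had 27.6 normalized counts in condition B and 200.8 in condition A, a log2 ratio of −2.82 (−3.78 to −2.05). Unigene 43352 had 27.6 in condition B and 156.2 in condition A, a log2 ratio of −2.46 (−3.44 to −1.67). Of the 5 shorter pieces, 3 were lower in condition B (165227 at −1.32, 142535 at −0.77 and 217864 at −0.39), all with intervals that include 0, and 2 were higher. Unigene 186011 had 32 reads in condition B and 4 in condition A, and unigene 209252 had 18 in condition B and 2 in condition A, with intervals of 0.87 to 6.12 and 0.28 to 8.58. The 7 together summed to 142 normalized counts in condition B and 424.8 in condition A, a log2 ratio of −1.58 (−1.99 to −1.19).

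**Figure D2:**
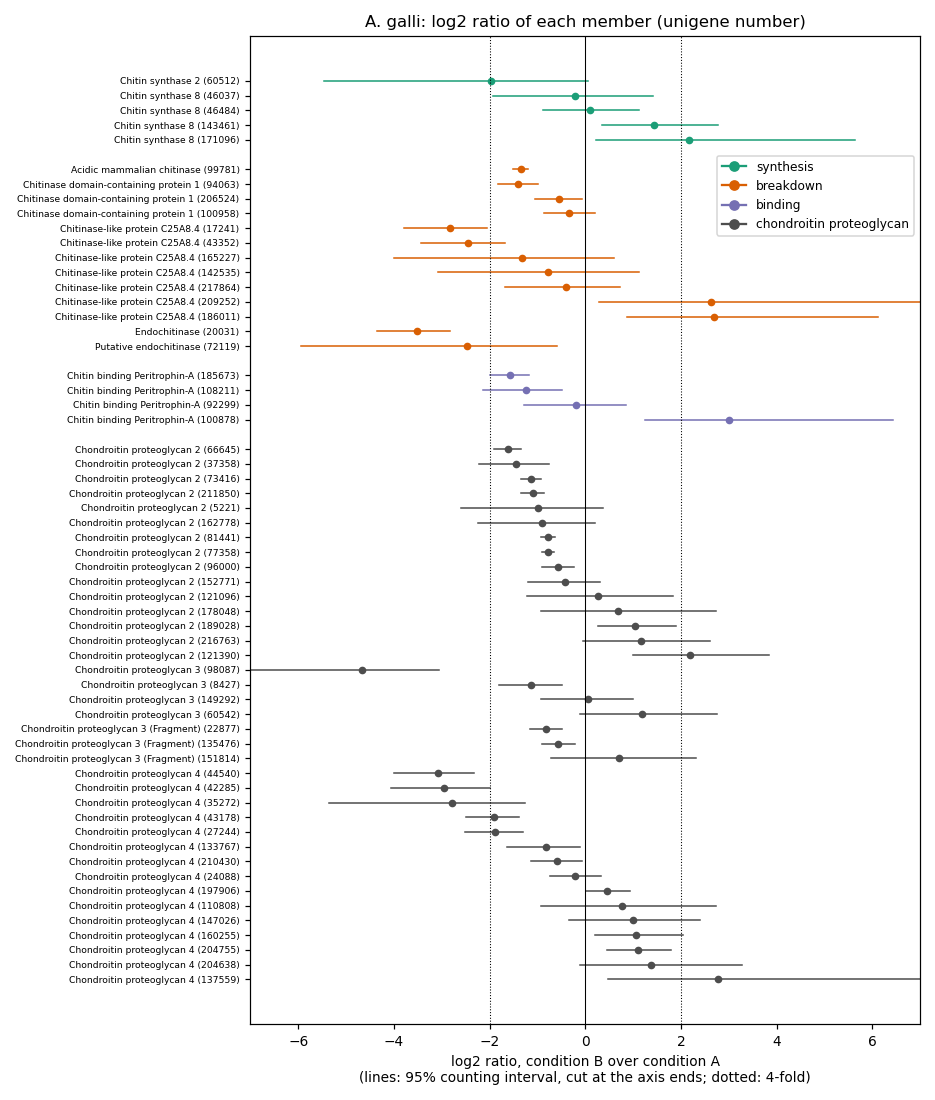
Log2 ratio of condition B over condition A for each of the 59 *A. galli* members, with its 95% counting interval, grouped by role and product name with the unigene number; dotted lines mark 4-fold. Chondroitin proteoglycan 3 (98087, −4.66) and endochitinase (20031, −3.51) lie farthest to the left, and the points beyond the right dotted line have intervals that reach back across it.

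Chondroitin proteoglycans made up most of the members and most of their reads in *A. galli*. The 37 unigenes summed to 6139 normalized counts in condition B and 11015 in condition A, a log2 ratio of −0.84 (−0.91 to −0.78), or −0.46 under total scaling. Of the 37, 22 were lower and 15 higher in condition B. Among the 33 that passed the minimum, 4 (12.1%) were at least 4-fold lower and 1 (3.03%) was 4-fold higher or more. The shares over all *A. galli* unigenes were 9.76% and 22.7%, so the lower share is near that of all unigenes. All 37 have a hit in a related ascaridoid, and among such unigenes the shares were 7.71% lower and 2.95% higher. The higher share of the proteoglycans is near the latter. The 3 products had like log2 ratios of summed counts, −0.87 for chondroitin proteoglycan 2, −0.78 for chondroitin proteoglycan 3 and −0.76 for chondroitin proteoglycan 4. Their unigenes were spread differently.

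Chondroitin proteoglycan 2, in *C. elegans* a chitin-binding protein of the inner eggshell layer, was the most deeply covered product. Its 15 unigenes summed to 4558 normalized counts in condition B and 8328 in condition A. Unigene 77358 had 1539 in condition B and 2638 in condition A, a log2 ratio of −0.78 (−0.91 to −0.65). Unigene 81441, which has the same hit protein, had 1198 in condition B and 2060 in condition A, again a log2 ratio of −0.78 (−0.93 to −0.63). These are the same ratio to 2 decimals, but the 2 need not be separate observations. They align to overlapping residues of that protein, 75 to 768 and 145 to 768, at 33.6% and 34.1% identity. Identities of the 37 chondroitin proteoglycan unigenes ran from 21.2% to 58.3%, with a median of 44.9%, and the names rest on these hits. Unigene 73416 had 527.6 in condition B and 1160 in condition A, a log2 ratio of −1.14 (−1.35 to −0.92). The 1 unigene of this product past the 4-fold rule was 121390, with 60 reads in condition B and 12 in condition A, a log2 ratio of 2.19 (0.99 to 3.84). All 15 carry the annotation term for chitin binding, as do all 13 breakdown members, whereas 0 of the 22 unigenes of chondroitin proteoglycans 3 and 4 do, and those 22 have no function term. Of the breakdown members, acidic mammalian chitinase 99781 and endochitinase 20031 also carry a term for hydrolysis of O-glycosyl compounds, as does binding unigene 108211. The breakdown role of the others rests on their names.

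Chondroitin proteoglycan 3, another chondroitin-carrying protein first named in *C. elegans*, had 7 unigenes that summed to 638 normalized counts in condition B and 1093 in condition A. The lowest ratio of the *A. galli* members was in this product. Unigene 98087 had 3.94 normalized counts (4 reads) in condition B and 123.7 (122 reads) in condition A, a log2 ratio of −4.66 (−8.05 to −3.06). The deeper unigenes 22877 and 135476 had 233.7 and 243.6 in condition B, against 412.7 and 360 in condition A. Their log2 ratios of −0.82 and −0.56 were much closer to 0 than that of 98087.

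Chondroitin proteoglycan 4, also named after a *C. elegans* protein, had the widest mix. Its 15 unigenes summed to 943 normalized counts in condition B and 1594 in condition A, and 8 were lower and 7 higher in condition B. Unigene 44540 had 29.6 in condition B and 255.5 in condition A, a log2 ratio of −3.07 (−3.99 to −2.33). Unigene 42285 had 18.7 in condition B and 151.1 in condition A, a log2 ratio of −2.95 (−4.07 to −1.99). Unigenes 204755 and 197906 were the highest members among those whose larger value reached 100 normalized counts. Unigene 204755 had 125.2 in condition B and 57.8 in condition A, a log2 ratio of 1.10 (0.45 to 1.79). Unigene 197906 had 199.2 in condition B and 144 in condition A, a log2 ratio of 0.47 (0.02 to 0.93).

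The direction of the *A. galli* members followed their level. Of the 21 members whose mean reached 100 normalized counts, 20 were lower in condition B, with a median log2 ratio of −1.10. Of the 37 with a mean of 10 to 100, 18 were lower, with a median of 0.07. The same split was seen over unigenes with a hit in a related ascaridoid, of which 85.2% were lower at a mean of at least 100 (median −0.66) and 58.4% at a mean of 10 to 100 (median −0.25). Under total scaling 18 of the 21 deeper members were lower, against 67.9% of such unigenes. All 4 members at least 4-fold higher in condition B had 4 to 12 reads in condition A, and for 0 of the 4 did the counting interval stay beyond 4-fold. For the 8 at least 4-fold lower it did so in 4, namely endochitinase 20031, C25A8.4 17241, chondroitin proteoglycan 3 98087 and chondroitin proteoglycan 4 44540.

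**Figure D3:**
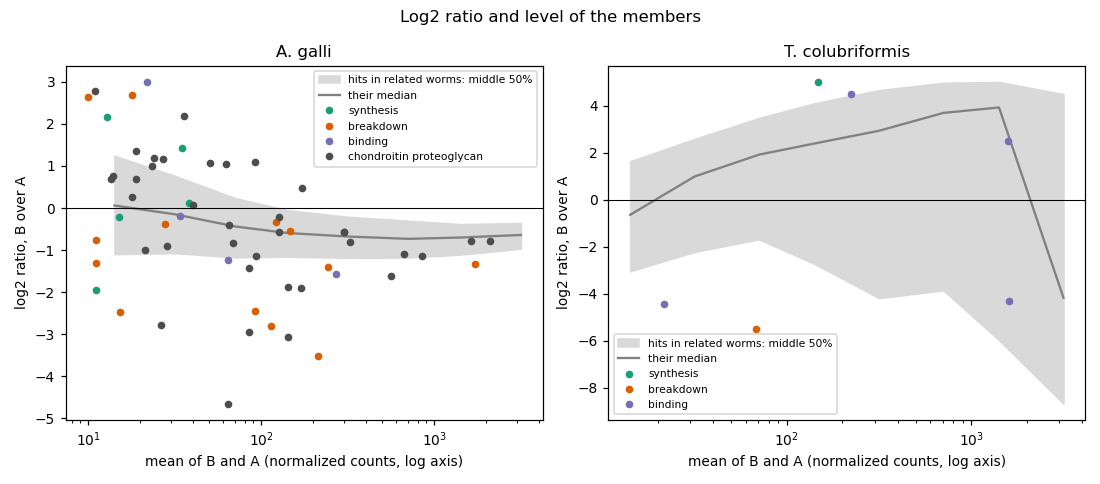
Log2 ratio of condition B over condition A against the mean of both conditions (log axis) for the members of each worm, over the median and the middle 50% of unigenes with a hit in a related worm. In *A. galli* 20 of 21 members with a mean of at least 100 lie below 0, while the 6 members of *T. colubriformis* lie far from 0 on both sides, as do the unigenes around them.

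Several members share a hit protein, and the tables do not say whether these are pieces of 1 gene or separate genes. The 59 *A. galli* unigenes hit 27 proteins, 32 of the unigenes in *Ascaris suum* and 23 in *Toxocara canis*. Of the 27 proteins, 11 were hit by several unigenes, 43 in all, and for 8 of these 11 some unigenes were higher and others lower in condition B. In 3 of the 11 all unigenes were lower and in 0 all were higher. End to end, 7 stretches of a hit protein were matched by more than 1 unigene, 16 unigenes in all, and the authors' counting could have split reads between them. In 4 of the 7 stretches the unigenes pointed both ways. The clearest case is in chondroitin proteoglycan 4, where unigenes 204638 and 35272 match residues 131 to 218 of the same *Ascaris suum* protein at 51.1% identity. Unigene 204638 had 27.6 normalized counts in condition B and 10.1 in condition A, whereas 35272 had 5.92 in condition B and 46.6 in condition A. Their log2 ratios were 1.37 and −2.78, and the sum of both gave −0.76. Alignments covered a median of 38.7% of the hit, and 7 of 59 covered at least 80%, 4 of them of chitin breakdown and 3 of chondroitin proteoglycan. With counts summed over each hit protein, in condition B 1 protein was 4-fold higher or more and 3 were 4-fold lower or more.

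**Figure D4:**
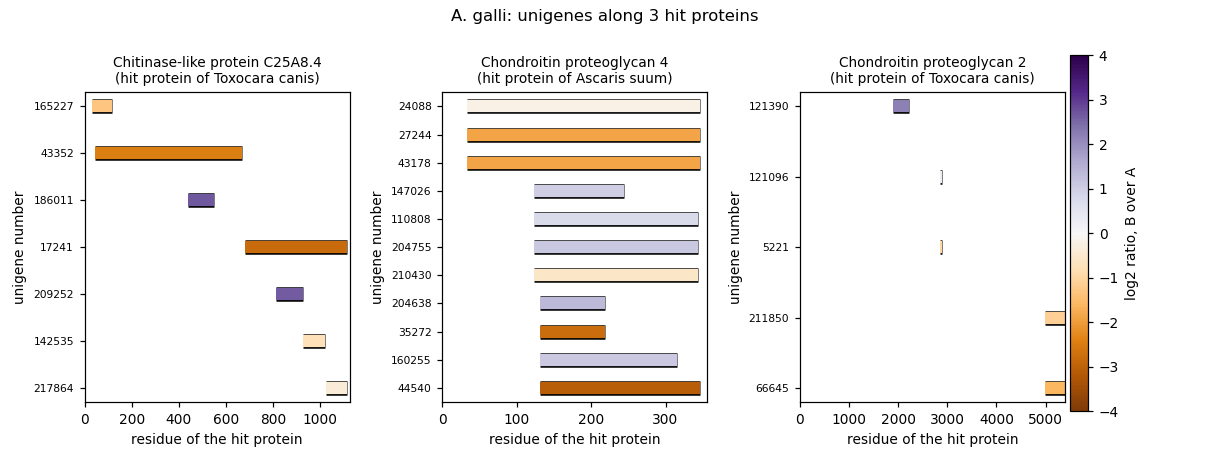
Position of each *A. galli* unigene along 3 hit proteins (residues), coloured by its log2 ratio of condition B over condition A. In C25A8.4 the 2 longest pieces are low in condition B (−2.82 and −2.46) and 2 of the 5 shorter pieces are high, and in chondroitin proteoglycan 4 unigenes over the same residues carry both signs.

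The steps before and after chitin itself were read from other products. Precursor synthesis, which turns fructose 6-phosphate into UDP-N-acetylglucosamine, the sugar that chitin synthase uses, had 30 unigenes in *A. galli*, and 7 of the 28 that passed the minimum were at least 4-fold higher and 1 at least 4-fold lower in condition B. The higher share, 25%, is near the 22.7% of all unigenes. The unigene with the most reads, UDP-N-acetylglucosamine pyrophosphorylase 80822, the last step, had 3829 normalized counts in condition B and 5077 in condition A, a log2 ratio of −0.41 (−0.49 to −0.32), or −0.02 under total scaling. Directions in the list differed by the kind of hit, as they did over all annotated unigenes, where the median log2 ratio was −0.58 with a hit in a related ascaridoid and 0.98 with another hit. Of the 17 with a hit in a related ascaridoid, 16 were lower and 1 higher, with a summed log2 ratio of −0.79. The other 13, all named as a pyrophosphorylase fused with phosphoacetylglucosamine mutase and all hitting the whipworm *Trichuris trichiura*, summed to 564.1 in condition B and 145.1 in condition A, a log2 ratio of 1.96 (1.57 to 2.34), and 6 of the 11 that passed were at least 4-fold higher.

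The list of later breakdown had 7 unigenes in *A. galli*, 4 of hexosaminidases, which split the small products of chitinase into single sugars, and 3 of cytosolic endo-beta-N-acetylglucosaminidase, an enzyme known for cutting sugar chains of glycoproteins. All 7 were lower in condition B, 4 of 7 under total scaling, and 0 were past the 4-fold rule. Beta-hexosaminidase 97486 had 4474 normalized counts in condition B and 6907 in condition A, a log2 ratio of −0.63 (−0.70 to −0.55). The 7 summed to a log2 ratio of −0.58, or −0.20 under total scaling, against −1.40 and −1.01 for the members named for chitin breakdown. The list of chondroitin chain synthesis had 55 unigenes, 7 of them named chondroitin sulfate proteoglycan 4, a core protein and not an enzyme of the chain. Of the 50 that passed the minimum, 11 were at least 4-fold higher and 4 at least 4-fold lower, and 2 of those 4 were the core protein. Under total scaling the counts were 12 and 1. Without the core protein, 11 of 45 were higher and 2 lower, and the higher share of 24.4% is near that of all unigenes. That share pools 2 unlike sets of hits. With the core protein kept, 4 of 34 with a hit in a related ascaridoid were higher (11.8%) and 4 lower. Over all unigenes with such a hit the shares were 2.95% and 7.71%. With another hit, 7 of 16 were higher (43.8%) and 0 lower. The deepest unigene of the list, UDP-glucuronic acid decarboxylase 1 155258, which makes the xylose donor that starts the chain, had 5177 in condition B and 9116 in condition A, a log2 ratio of −0.82 (−0.89 to −0.75). Of the 11 higher unigenes of the list, 10 were UDP-glucose 6-dehydrogenase, the enzyme that makes the glucuronate donor. The 18 unigenes of that name summed to 2485 in condition B and 2296 in condition A. Their summed log2 ratio was 0.11 (−0.003 to 0.23), or 0.50 under total scaling. The deepest of them, 23121, was lower, with 640 in condition B and 1055.6 in condition A, a log2 ratio of −0.72 (−0.93 to −0.52).

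Marker lists for sperm, yolk, early embryo and oocyte, and cuticle moved unequally between the 2 *A. galli* libraries. Major sperm protein forms filaments that drive the crawling of nematode sperm. Its 159 unigenes summed to 1523105 normalized counts in condition B and 5077184 in condition A, a log2 ratio of −1.74. Of the 158 that passed the minimum, 52 were at least 4-fold lower and 3 higher, or 21 lower and 3 higher under total scaling. Over all unigenes the lower share was 9.76% and the higher 22.7%, or 5.74% and 29% under total scaling. All 4 unigenes of vitellogenin, the yolk protein that oocytes take up, were higher in condition B and summed to 1209 against 360 in condition A, a log2 ratio of 1.75. The 5 early embryo and oocyte products summed to 2004 in condition B and 2549 in condition A, a log2 ratio of −0.35 that turns to 0.04 under total scaling. The 40 cuticle collagen unigenes summed to a log2 ratio of 0.38. No list could be at 0 in either condition, because a unigene is listed only if both conditions had reads of it. The part of these lists in the values of the members was not tested.

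In *T. colubriformis* the synthesis member was high and the breakdown member low in condition B, and the binding members were split. All 6 passed the minimum and the 4-fold rule, 3 higher and 3 lower, and they stayed so under total scaling. This is a worm in which most unigenes were past that rule, with 39.7% of all unigenes at least 4-fold higher and 41.6% at least 4-fold lower in condition B, or 55.7% and 28.1% under total scaling.

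Chitin synthesis was represented by unigene 41025, named as a protein with a fungal chitin synthase domain. It had 288.5 normalized counts (577 reads) in condition B and 8 (4 reads) in condition A, a log2 ratio of 5.01 (3.31 to 8.23). Its alignment covered 99.7% of a *Haemonchus contortus* protein at 82.3% identity, so unlike the *A. galli* synthase pieces it is close to a whole transcript. Chitin breakdown was represented by chitinase class I, unigene 16015, of an enzyme class best known from plants. It had 2 normalized counts (4 reads) in condition B and 134 (67 reads) in condition A, a log2 ratio of −5.49 (−9.19 to −4.12). Under total scaling these ratios were 6.84 and −3.77. The synthase and chitinase members thus lay on opposite sides of 0 under both scalings. By contrast, 2 unigenes that carry the term for chitinase activity under names without the word were higher in condition B, like the synthase. They summed to 7145.5 normalized counts in condition B and 292 in condition A, a log2 ratio of 4.61.

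The 4 chitin-binding unigenes of *T. colubriformis* divided by the protein they hit. Unigenes 40925 and 54823 hit one *Haemonchus contortus* protein and were high in condition B. Unigene 40925 had 2666 normalized counts in condition B and 478 in condition A, a log2 ratio of 2.48 (2.21 to 2.75). Unigene 54823 had 429 in condition B and 18 in condition A, a log2 ratio of 4.50 (3.19 to 6.05). The other pair, 23272 and 33577, match the same residues of a second *Haemonchus contortus* protein and were low in condition B. Unigene 23272 had 153.5 in condition B and 3052 in condition A, a log2 ratio of −4.30 (−4.57 to −4.06). Unigene 33577 had 2 reads in condition B and 21 in condition A, with an interval of −10.89 to −2.68. Summed, the 4 had 3250 in condition B and 3590 in condition A, a log2 ratio of −0.14 that turns to 1.85 under total scaling, so the sum hides both pairs and its sign is set by the scaling.

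**Figure D5:**
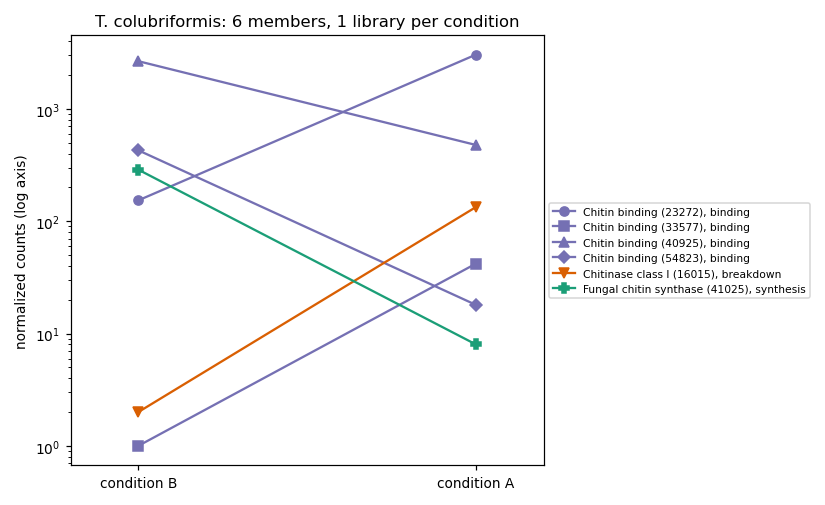
Normalized counts (log axis) of the 6 *T. colubriformis* members in conditions B (left) and A (right), 1 library each; symbols mark unigenes and colours their role. Chitin synthase is high in condition B (288.5) and low in condition A (8), the chitinase the reverse, and the 4 chitin-binding lines form a pair in each direction.

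The neighbouring steps in *T. colubriformis* were few. Their counts stand beside 39.7% of all unigenes at least 4-fold higher and 41.6% at least 4-fold lower in condition B, or 55.7% and 28.1% under total scaling. All 3 precursor unigenes were at least 4-fold lower in condition B, 2 of them also under total scaling. The deepest, the fused pyrophosphorylase 26014, had 1726 normalized counts in condition B and 16868 in condition A, a log2 ratio of −3.29, or −1.30 under total scaling. Of 4 beta-hexosaminidase unigenes 2 passed the minimum, 1 at least 4-fold lower (31750, with 37 in condition B and 12164 in condition A) and 1 at least 4-fold higher (75318, with 723 in condition B and 12 in condition A). Of 8 unigenes of chondroitin chain synthesis 6 passed, 2 at least 4-fold higher and 4 at least 4-fold lower, or 3 each way under total scaling. The deepest of them, 28654, a glucuronosyltransferase of the chain's linkage sugars, had 31 in condition B and 24486 in condition A, a log2 ratio of −9.58. The signs of the summed ratios of the sperm and cuticle lists depended on scaling here. Major sperm protein, over 25 unigenes, had a summed log2 ratio of −1.81, or 0.18 under total scaling. Cuticle collagen, over 60, had −1.55, or 0.44. The sums hide the direction of single unigenes. For sperm 17 were higher and 8 lower in condition B, with a median log2 ratio of 1.73 at a mean of at least 10. The deepest sperm unigene, with 19 in condition B and 24386 in condition A, supplied 43.2% of that list's sum. For cuticle collagen 31 were higher and 27 lower, with a median log2 ratio of 1.28 at the same minimum. Only 1 unigene each matched the yolk and the early embryo lists, with 1 and 29.5 normalized counts in condition B and 16 and 4 in condition A. Their part in the values of the members was not tested.

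In the authors' deposited table the adjusted p-value was 1 for all 59 members of *A. galli* and all 6 of *T. colubriformis*. The lowest unadjusted p-value there was 0.0295, for endochitinase 20031. The authors' deposited table marked 6 *A. galli* members as up, 9 as down and 44 as neutral, and 3 *T. colubriformis* members as up and 3 as down. Those p-values come from 1 library per condition and carry no replicate variation.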

How the data were processed

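RNA of whole worms was read from 4 libraries, 1 per worm and condition. Per the file headers, the authors' deposited tables give normalized counts of conditions A and B, the fold change as a ratio, its log2, a p-value with its adjusted form, and for each unigene a protein hit and its percent of identical residues. The submitters' processing notes name DESeq, with no version. For the aligner and the assembly, settings are not given in sources used here. Because no header says which condition is extract, the planned groups could not be assigned.

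Log2 ratios were computed as condition B over condition A with a pseudocount of 1 (Python 3.11.15, numpy 2.4.6, pandas 2.3.3, scipy 1.17.1). Unigenes whose larger value reached 20 normalized counts were read against 4-fold, and medians used a mean of at least 10. Reads were recovered from the step of the deposited values (up to 200, all whole within 0.1), and intervals used reads divided by 2, since most counts were even. Lists were matched by product name. Named unigenes were, per worm and role, the 3 with the most reads and the 2 largest rises and falls whose larger value reached 100 normalized counts, and the deepest unigene of each pathway list; others were chosen after their values were seen. Members, roles and lists were chosen with earlier results of these data known.

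Alternatives were total scaling, the trimmed mean of M-values (30% of ratios, 5% of levels trimmed), a pseudocount of 5, minima of 100 and of a mean of 50, 2-fold, the counting interval, an identity of at least 50%, and sums per product name. Sums per best-hit protein were added after the data were seen.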

Additional observations from a re-analysis of the deposited data

How the results depend on the processing

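The *A. galli* count of members at least 4-fold higher in condition B, 4, became 2 with a pseudocount of 5, 1 at an identity of at least 50%, 0 summed per product name, 1 per best-hit protein, 0 with a minimum of 100, 12 at 2-fold and 0 by the counting interval. The count at least 4-fold lower, 8, became 3 at that identity, 2 per product name, 3 per best-hit protein, 19 at 2-fold and 4 by the counting interval. For *T. colubriformis* the 3 higher became 1 at that identity and 1 per product name, and the 3 lower became 1 per product name. Its median of −0.91 turned to 1.07 under total scaling, 0.11 with the trimmed mean of M-values and 2.48 with a minimum mean of 50, and was −4.37 at that identity. Its summed chitin-binding ratio turned to 1.85 under total scaling and 0.88 with the trimmed mean of M-values. The *A. galli* chitin-binding sum was 3.28 at that identity, which leaves 1 unigene. Summing and the identity minimum leave fewer items to count; otherwise the cause was not tested. The *A. galli* median lay between −1.14 and −0.18 in every setting tried. The trimmed mean moved log2 ratios of summed counts by 0.14 in *A. galli* and 1.03 in *T. colubriformis*. No paired analysis was possible because there is 1 library per condition and the result comes from no test. Few reads limit the *A. galli* synthases and every member at least 4-fold higher there.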

Other observations

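Unigenes that carry an annotation term for chitin but a product name without the word were looked at after the data were seen. *A. galli* had 43, of which 41 are named uncharacterized protein. They summed to 4720 normalized counts in condition B and 11652 in condition A, a log2 ratio of −1.30 (−1.37 to −1.23), or −0.92 under total scaling. All 14 whose mean reached 100 normalized counts were lower in condition B, with a median log2 ratio of −1.57. Of the 33 that passed the minimum, 7 (21.2%) were at least 4-fold lower and 3 (9.09%) at least 4-fold higher, beside 9.76% and 22.7% of all *A. galli* unigenes. The deepest, unigene 63552, had 1487 in condition B and 2803 in condition A, a log2 ratio of −0.91 (−1.04 to −0.79).

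*T. colubriformis* had 16 such unigenes, of which 7 of the 13 that passed the minimum exceeded condition A by 4-fold or more in condition B and 3 lay that far below it. Over all unigenes of this worm the shares were 39.7% and 41.6%. Unigene 29306 had 1098 normalized counts in condition B and 371678 in condition A, a log2 ratio of −8.40 (−8.49 to −8.32), and supplied 92.7% of the sum of the 16. Unigenes 67813 and 89548, which carry the term for chitinase activity, went the other way from the chitinase class I member. Unigene 67813 had 5034 in condition B and 232 in condition A, a log2 ratio of 4.43 (4.07 to 4.84). Unigene 89548 had 2111 in condition B and 60 in condition A, a log2 ratio of 5.11 (4.41 to 5.98). A product name alone therefore misses the chitinase-annotated unigenes with the most reads in this worm.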
